A study of Mus musculus with 14 samples.

Results

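Of the 10943 PU.1 peaks of haematopoietic progenitors (HP), 331 had no overlap, even by 1 bp, with any of the 82866 PU.1 peaks of macrophages (MAC). These 331 progenitor-only peaks are described here, beside the other 10612 HP PU.1 peaks, which are called shared. The members were chosen on the PU.1 lists themselves, so that their number, 3.02% of the HP list, is a description of how they were selected and nothing is read from it. Progenitor-only refers to the lists and not to the cells, because a peak missing from a list may have fallen below the threshold used to make it. By the study's methods the p-value limit for calling peaks was stricter for the MAC PU.1 list than for the HP PU.1 list.

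The peaks came from chromatin immunoprecipitation with sequencing (ChIP-seq) of transcription factors in cells grown from 1 mouse embryonic stem cell line of the 129 strain, which carries a GFP reporter of the Brachyury gene in every population. HP were sorted for the surface protein CD41, and MAC were CD11b+ cells grown onward from CD41+ cells. The same antibody, Spi1 sc352 from Santa Cruz, was used at both of these stages, and each PU.1 list came from a single sample. The series holds 14 lists, and the other 12 were used to see which further factors lay at the same places: HP C/EBPβ, GATA1, GATA2, GFI1B and RUNX1, MAC C/EBPβ and RUNX1, and lists of the preceding stages for C/EBPβ, GATA2 and ELK4. Those stages were hemogenic endothelium (HE, Tie2+ cKit+ CD41-), hemangioblast (HB, Brachyury+ Flk1+) and mesoderm (MES, Brachyury+ Flk1-). Each factor and stage had 1 list without a score per peak, and the peaks of 1 list are not replicates. No test between stages or between sets of peaks was therefore possible. Shares are given with 95% intervals by the exact Clopper-Pearson method, and these intervals reflect counting alone. Where a count was 0, the limit given is instead 3 counts of the total, a one-sided bound that lies below the upper end of such an interval.

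PU.1, encoded by Spi1, is a transcription factor of the ETS family that binds a purine-rich core around GGAA and is required for the formation of myeloid and lymphoid cells. It is present in early progenitors and rises as macrophages mature, where it binds together with factors such as C/EBPβ at enhancers of macrophage genes. At such enhancers it is known as a pioneer factor, which can bind where nucleosomes still cover the DNA and make the site accessible to others.

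The letters under the members were not of a single kind, and the following sequences show the range. All are the central 150 bases of a peak on the reference strand of GRCm38, and capitals mark GAGGAA, the core of the PU.1 sequence, on either strand (TTCCTC on the opposite one). The first set holds members with the longer PU.1 letters GAGGAAGT close to the peak centre. They are named by the nearest coding gene: Nrp1 encodes a co-receptor of vascular growth factors and semaphorins, Gata3 a zinc finger transcription factor, Rab29 a small GTPase, Thap1 a zinc finger factor and Tubb5 a beta tubulin.
Nrp1, chr8:128283513-128283662: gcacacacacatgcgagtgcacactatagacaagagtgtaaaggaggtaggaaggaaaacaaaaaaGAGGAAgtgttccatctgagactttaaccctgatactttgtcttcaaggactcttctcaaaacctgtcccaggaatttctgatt
Gata3, chr2:9095410-9095559: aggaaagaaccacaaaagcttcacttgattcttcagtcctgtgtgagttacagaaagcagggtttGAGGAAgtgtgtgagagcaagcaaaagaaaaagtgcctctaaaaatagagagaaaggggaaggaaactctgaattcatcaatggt
Rab29, chr1:131866811-131866960: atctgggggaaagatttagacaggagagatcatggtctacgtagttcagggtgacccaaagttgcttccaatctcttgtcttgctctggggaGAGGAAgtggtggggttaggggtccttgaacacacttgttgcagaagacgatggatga
Thap1, chr8:26158826-26158975: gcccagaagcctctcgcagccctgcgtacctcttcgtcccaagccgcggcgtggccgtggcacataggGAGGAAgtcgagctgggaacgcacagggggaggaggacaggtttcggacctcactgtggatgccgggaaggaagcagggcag
Tubb5, chr17:35837214-35837363: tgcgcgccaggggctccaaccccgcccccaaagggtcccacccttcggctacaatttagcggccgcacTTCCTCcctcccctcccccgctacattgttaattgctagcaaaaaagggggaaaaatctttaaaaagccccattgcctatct

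The next pair are the members with the largest numbers of other factors among those more than 1000 bp from a MAC PU.1 peak, and neither window holds GAGGAA. Both do hold the shorter GGAA on the opposite strand (TTCC). Pik3cb encodes a catalytic subunit of phosphoinositide 3-kinase, and Mdm1 a protein of centrioles.
Pik3cb, chr9:99182277-99182426: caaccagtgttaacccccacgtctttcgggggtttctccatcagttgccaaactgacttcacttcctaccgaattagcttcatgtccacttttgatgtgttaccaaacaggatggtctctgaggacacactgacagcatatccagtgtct
Mdm1, chr10:118064967-118065116: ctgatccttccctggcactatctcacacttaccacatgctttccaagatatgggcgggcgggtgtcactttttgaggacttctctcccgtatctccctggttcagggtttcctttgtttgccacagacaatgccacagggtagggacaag

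The last set are the members with the lowest GC content, shown because base composition set a part of the members apart. They were chosen after their values were seen, although Msr1, the macrophage scavenger receptor, was also named as a gene of the macrophage list. Slc10a2 encodes the ileal bile acid transporter.
Msr1, chr8:39831435-39831584: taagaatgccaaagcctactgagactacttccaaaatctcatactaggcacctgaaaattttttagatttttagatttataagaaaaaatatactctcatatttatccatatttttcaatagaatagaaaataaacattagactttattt
Slc10a2, chr8:5884365-5884514: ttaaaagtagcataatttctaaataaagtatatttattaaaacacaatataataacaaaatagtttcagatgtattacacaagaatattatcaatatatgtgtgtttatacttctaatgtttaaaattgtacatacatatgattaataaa
4931408C20Rik, chr1:27222435-27222584: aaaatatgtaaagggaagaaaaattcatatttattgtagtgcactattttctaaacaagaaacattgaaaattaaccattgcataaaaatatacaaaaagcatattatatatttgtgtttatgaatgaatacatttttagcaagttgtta

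The first question was how far the members lay from MAC PU.1 binding. Distances between peak centres ran from 401 bp to 2457148 bp, with a median of 4958 bp over 330 members. The remaining member lay on the mitochondrial genome, where the MAC list had no peak. The centres of 115 members were at most 1000 bp from a MAC PU.1 centre, and these are called neighbouring. Another 28 lay between 1000 and 2000 bp away and are called intermediate, and 188 lay further away, the mitochondrial one included, and are called distant. The neighbouring members piled up at the edge set by the rule, with 37 up to 500 bp, 31 from there to 600 bp and 21 to 700 bp. At the other end 60 members were more than 100000 bp from any MAC PU.1 peak. The farthest was 1 at Dsel on chromosome 1.

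**Figure D1:**
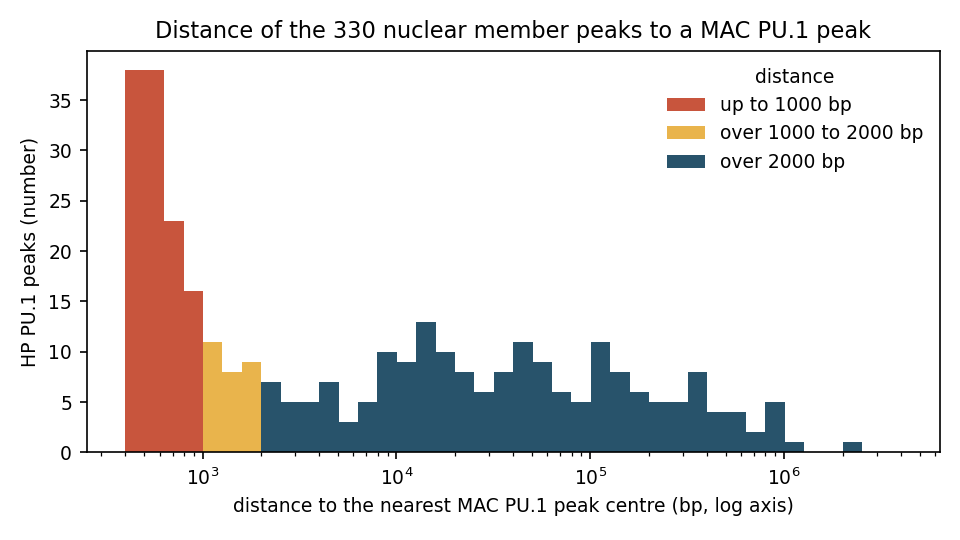
Number of progenitor-only peaks (vertical axis) by the distance in bp from the peak centre to the nearest MAC PU.1 peak centre (logarithmic horizontal axis), for the 330 members outside the mitochondrial genome. Colours mark the 115 neighbouring, 28 intermediate and 187 of the distant members, and the bars are tallest beside the 400 bp edge and spread widely beyond 2000 bp.

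The members just inside the edge were at Atp7a, a copper transporter, at 401 bp, Hdlbp, the RNA-binding protein vigilin, at 406 bp, Tgfbr2, the type II TGFβ receptor, at 410 bp, and Ppif, cyclophilin D, at 416 bp. The shared peaks just outside it were at Pi4ka, with 11 bp of overlap, Tmem236 and Egr2, each with 13 bp, and Gclc, with 16 bp. Such marginal cases were few among shared peaks, of which 98% overlapped a MAC peak by 301 bp or more and 44 overlapped by 100 bp or less.

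Neighbouring members sat beside MAC peaks that often had a progenitor peak of their own. For 55 of the 115 (47.8%, interval 38.4 to 57.3%), the MAC neighbour overlapped a different HP PU.1 peak, so that the HP list held a pair of adjacent peaks where the MAC list held 1 of them. For the others the nearby MAC peak had no HP counterpart. Of the gaps between consecutive peak centres, 152 in the HP list (1.39%) and 6177 in the MAC list (7.46%) were between 400 and 1000 bp.

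The rows of the HP list are not in chromosomal order, and the sources used here do not say what orders them. The share of all HP PU.1 peaks with GAGGAAGT fell from 55.3% (52.3 to 58.3%) in the first 10% of the rows to 34.6% (31.7 to 37.5%) in the last. Across the 10612 shared peaks, the row in the HP list and the row of the overlapping peak in the MAC list had a Spearman rho of 0.486, which is given as a description because peaks share their samples and are not replicates.

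Members were concentrated towards the end of the list. Their median position was 80.5% of the way down, with quartiles at 62.3 and 93.5%, and that of shared peaks was 48.9%. The first 10% of the rows held 5 members (0.457% of its peaks) and the last 10% of rows held 110 (10.1%, 8.34 to 12%). The first 50% of rows held 50 of the 331. All 5 members of the first 10% of rows were neighbouring ones, whereas 73 of the 110 in the last 10% of rows were distant.

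**Figure D2:**
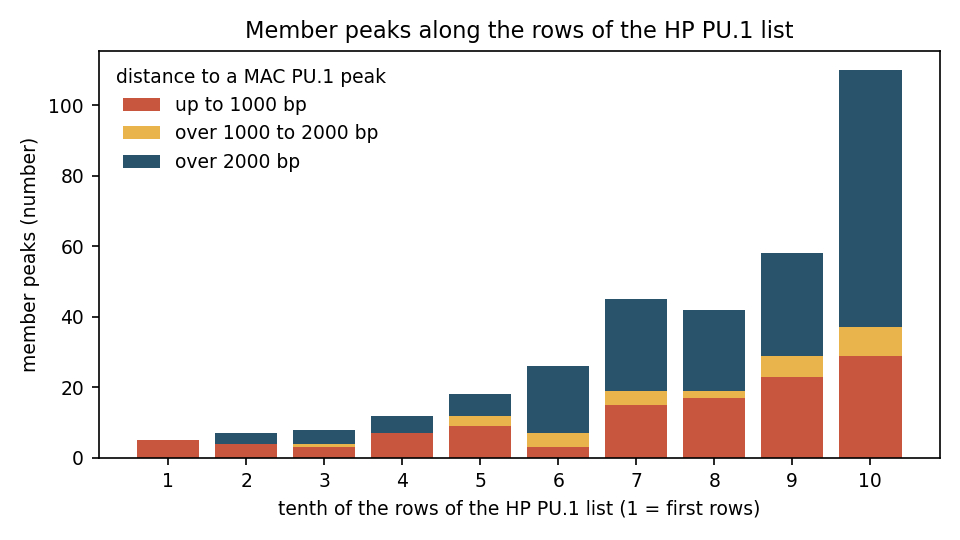
Number of progenitor-only peaks (vertical axis) in successive bands of 10% of the rows of the HP PU.1 list (horizontal axis, first rows on the left), with colours for the distance to the nearest MAC PU.1 peak. Members rise from 5 in the first 10% of rows to 110 in the last, where 73 were distant, 8 intermediate and 29 neighbouring.

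The first 5 members by row were all within 1000 bp of a MAC PU.1 peak. They were row 315 near Tmem247, row 587 in an intron of Ptpre, a receptor-type tyrosine phosphatase, row 719 in an intron of Map2k3, a kinase upstream of p38, row 877 near Cntnap5c and row 930 in an intron of Sfxn5, a mitochondrial carrier. The peak in Map2k3 was the only HP PU.1 peak nearest to that gene, carried 2 copies of GAGGAAGT and lay 759 bp from a MAC PU.1 peak. The earliest distant members appeared in the rows from 10 to 20%, which held 3.

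Distant members were poorer in GC than the other peaks. Their median GC content was 37.5%, with quartiles at 29.5 and 45.2%, beside 50.8% for neighbouring members and 48.8% for shared peaks. Windows 2 kb to each side of the distant members had a median of 40.1%, above the peaks themselves, whereas those beside shared peaks had 45.4%, below the peaks. No shared peak and no neighbouring member had a GC content under 25%, and 15 distant members had. Below 30% there were 48 of the 188 distant members (25.5%, 19.5 to 32.4%), 2 of 28 intermediate ones and 1 of 115 neighbouring ones, against 15 of the 10612 shared peaks (0.141%, 0.0791 to 0.233%).

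Read the other way, 51 of the 66 HP PU.1 peaks with a GC content under 30% were progenitor-only (77.3%). All 15 peaks under 25% GC were, 36 of 51 peaks from 25 to 30%, 32 of 179 from 30 to 35% (17.9%) and 49 of 795 from 35 to 40% (6.16%). From 40 to 50% the share was 2.05%, and from 50% upward 1.97%. The limit of 30% was chosen after the values were seen.

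**Figure D3:**
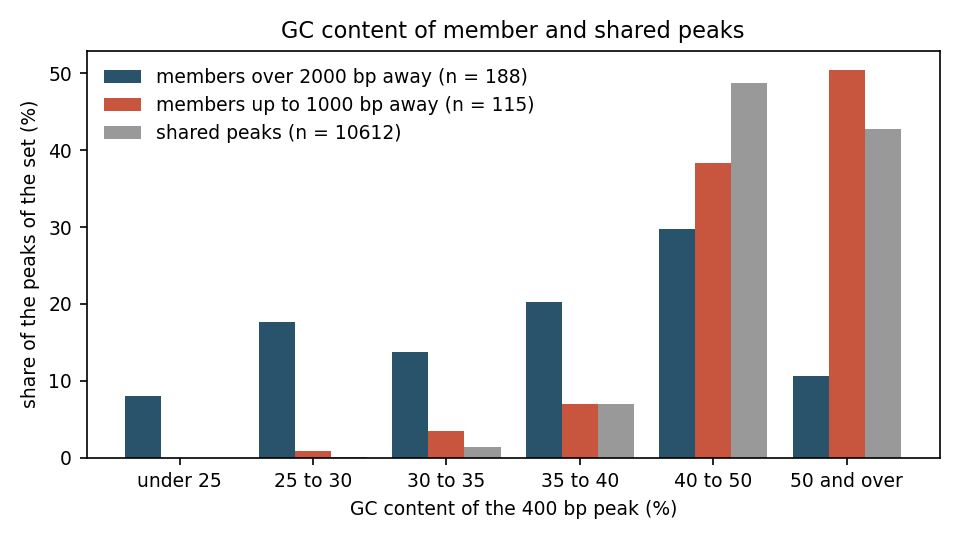
Share of the peaks of a set in percent (vertical axis) in 6 bands of GC content of the 400 bp peak (horizontal axis), for 188 distant members, 115 neighbouring members and 10612 shared peaks. Distant members reach into the bands under 30% GC, where they have 7.98 and 17.6% of their peaks and shared peaks have 0 and 0.141%.

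The GC-poor members stood at the end of the list and far from genes. Of the 51, 41 lay in the last 10% of the rows, where 2 of 984 shared peaks were as poor in GC. None of the 50 members in the first 50% of the rows was under 30% GC, which allows a share of up to 6% (3 counts of the total). The 48 distant ones among them had a median distance of 281748 bp to a coding transcription start site (TSS) and of 123602 bp to a MAC PU.1 peak, and 34 were intergenic. The 140 distant members with more GC had medians of 84813 bp and 20412 bp. Over 50 kb from a coding TSS lay 38 of the 48 GC-poor distant members. The same held for 2853 of all 10612 shared peaks and for 2842 of the 10597 with at least 30% GC. Most of the 15 GC-poor shared peaks were thus far from genes too. Chromosome 8 held 15 of the 51, including 3 upstream of Tenm3, a teneurin of neuronal contacts, and 2 each near Marchf1 and Adam34l. It held 33 of all 331 members and 787 of the 10943 HP PU.1 peaks. None of the 51 overlapped a peak of any other list, which allows up to 5.88%. Of all HP PU.1 peaks 38.5% did. Among shared peaks 4155 of all 10612 did, and 4154 of the 10597 with at least 30% GC. The 15 GC-poor shared peaks thus hardly added to that count either.

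**Figure D4:**
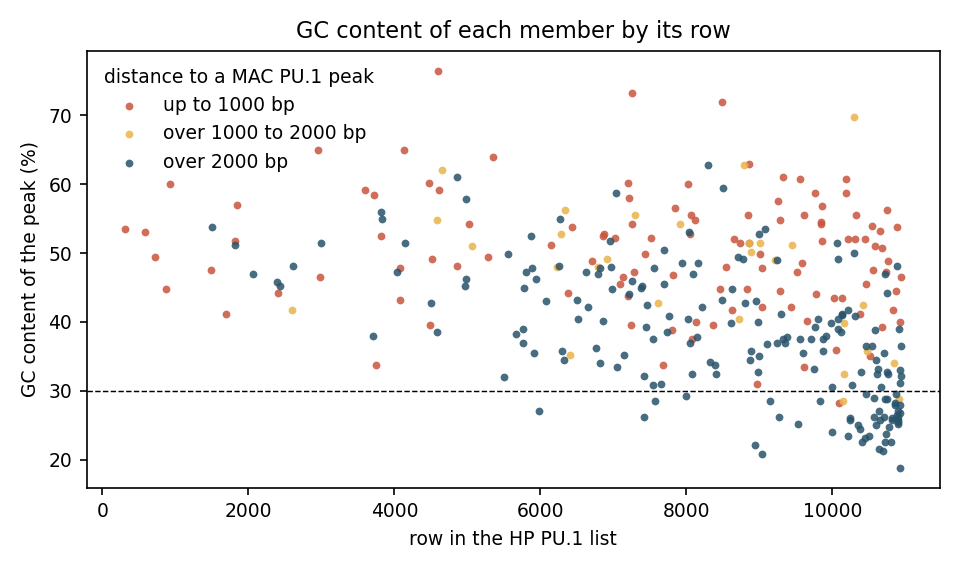
GC content of each of the 331 progenitor-only peaks in percent (vertical axis) against its row in the HP PU.1 list (horizontal axis), coloured by the distance to the nearest MAC PU.1 peak. The dashed line marks 30%, and 41 of the 51 points under it lie in the last 10% of the rows.

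The last rows did not have this composition as a whole. In the last 10% of the list shared peaks had a median GC content of 47.5% and members 34.8%. There the promoter share was 20.6% (18.1 to 23.3%) for 984 shared peaks and 10% (5.1 to 17.2%) for 110 members. Shared peaks of the last 10% of rows lay over 100 kb from a coding TSS in 14.9% of cases, and members in 42.7% (33.3 to 52.5%).

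The PU.1 letters differed between the same groups of members. GAGGAAGT, searched on both strands, occurred in 104 of 331 members (31.4%, 26.5 to 36.7%), in 4500 shared peaks (42.4%, 41.5 to 43.4%) and in 42.1% of all HP PU.1 peaks. Windows of equal width 2 kb to each side held it in 1.97% of cases beside members and 2.96% beside shared peaks. In the first 50% of rows GAGGAAGT was in 36% (22.9 to 50.8%) of members and 47% of shared peaks. For the last 50% of rows the values were 30.6% (25.3 to 36.4%) and 37.6%. For the last 10% of rows they were 30% (21.6 to 39.5%) and 35.1%. The members' interval included the shared value in the first 50% and in the last 10%. In the last 50% it ended below the shared value. Over all rows, the neighbouring members had GAGGAAGT in 27.8% (19.9 to 37%). The 140 distant members with at least 30% GC had 42.9% (34.5 to 51.5%), an interval that includes the value of shared peaks. The 48 distant members under 30% GC had 6 (12.5%, 4.73 to 25.2%), and of the 15 under 25% GC none had it, which allows up to 20%.

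Within bands of GC content the values of GAGGAAGT in distant members lay mostly below those of shared peaks. Among the 15 shared peaks between 25 and 30% GC, 8 held GAGGAAGT (53.3%, 26.6 to 78.7%), beside 6 of 33 distant members in that band (18.2%, 6.98 to 35.5%). From 30 to 35% GC the values were 57.7% (36.9 to 76.6%) of 26 distant members and 47.6% (39.3 to 56%) of 147 shared peaks, the only band in which the distant members had the higher value. From 35 to 40% GC they were 36.8% (21.8 to 54%) and 44.4%, from 40 to 50% 42.9% (29.7 to 56.8%) and 44.9%, and from 50% upward 35% (15.4 to 59.2%) and 39.1%. In these 4 bands from 30% upward the interval of the distant members included the value of shared peaks. Neighbouring members had 29.5% (16.8 to 45.2%) from 40 to 50% GC and 25.9% (15.3 to 39%) from 50% upward, where the interval ended just below the 39.1% of shared peaks. The 6 GC-poor members with the letters were nearest to Dsel, Cald1, Spertl, Bche, G6pd2 and Ptchd4.

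Where the letters occurred they were central. They lay within 50 bp of the centre in 58 of the 66 distant members that had them (87.9%), in 26 of 32 neighbouring ones (81.2%) and in 91% of the shared peaks that had them. The shorter core GAGGAA, which includes the longer letters, was found in 64.4% of members (58.9 to 69.5%), 76.5% of shared peaks and 76.1% of the whole HP list. The short core without the longer letters was in 32.9% of members and 34% of shared peaks, and the groups of members lay on either side of this, with 44.3% (35.1 to 53.9%) of neighbouring, 26.1% (19.9 to 33%) of distant and 14.6% (6.07 to 27.8%) of GC-poor distant ones. In the GC-poor distant members GAGGAA reached 27.1%, beside 30.2% in their own flanking windows. The longer GAGGAAGT was in 6 of these 48 members and in 0 of their 96 flanking windows (exact interval 0 to 3.77%). It lay within 50 bp of the centre in 5 of the 6. The lists hold no score or signal for the 51 GC-poor members, 15.4% of all members, so whether they are weak peaks or bound by PU.1 at all was not tested.

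The letters of other factors were counted in the same way on both strands. AGATAA, bound by GATA factors, occurred in 104 members (31.4%, 26.5 to 36.7%) and 19.5% of shared peaks (18.8 to 20.3%), and in 19.9% of all HP PU.1 peaks. The neighbouring members had 16.5%, and the distant ones 41% (33.9 to 48.3%), against 22.4% of their flanking windows. These letters are AT-rich, and in shared peaks their share went from 12.4% at 50% GC and over to 46.7% of the 15 peaks between 25 and 30%. From 30 to 35% GC, AGATAA was in 53.8% (33.4 to 73.4%) of distant members and 37.4% (29.6 to 45.8%) of shared peaks, from 35 to 40% in 44.7% (28.6 to 61.7%) and 33.5%, and from 40 to 50% in 33.9% (21.8 to 47.8%) and 23.2% (22.1 to 24.4%). The distant members had the higher value in each of these bands, and in each the intervals overlapped. In the 50 members of the first 50% of the rows AGATAA occurred in 9 (18%), close to the 19.3% of shared peaks there. Of all peaks with AGATAA, it lay within 50 bp of the centre in 40 of 104 members (38.5%, 29.1 to 48.5%), 26.3% of shared peaks and 26.9% of the whole HP list. By rows, this held for 8 of the 9 members in the first 50% (88.9%, 51.8 to 99.7%), beside 25.1% (22.5 to 27.8%) of shared peaks. For the last 50% of rows the values were 33.7% (24.3 to 44.1%) and 27.5%.

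The RUNX, C/EBP and AP-1 letters had similar values in members and shared peaks. The RUNX letters TGTGGTT were in 11.2% and 12.7% and in 12.6% of all HP PU.1 peaks. The C/EBP letters TTGCNNAA were in 18.1% and 16.8% and in 16.8% of the whole list. The AP-1 letters TGANTCA were in 11.5% and 14.1% and in 14% of the whole list. CCGGAAGT, an ETS sequence preferred by factors such as ELK4, was in 2 members (0.604%, 0.0733 to 2.17%), both neighbouring ones, in 1.57% of shared peaks and in 1.54% of the whole list. A match of letters is a description and not a site shown to be bound.

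**Figure D5:**
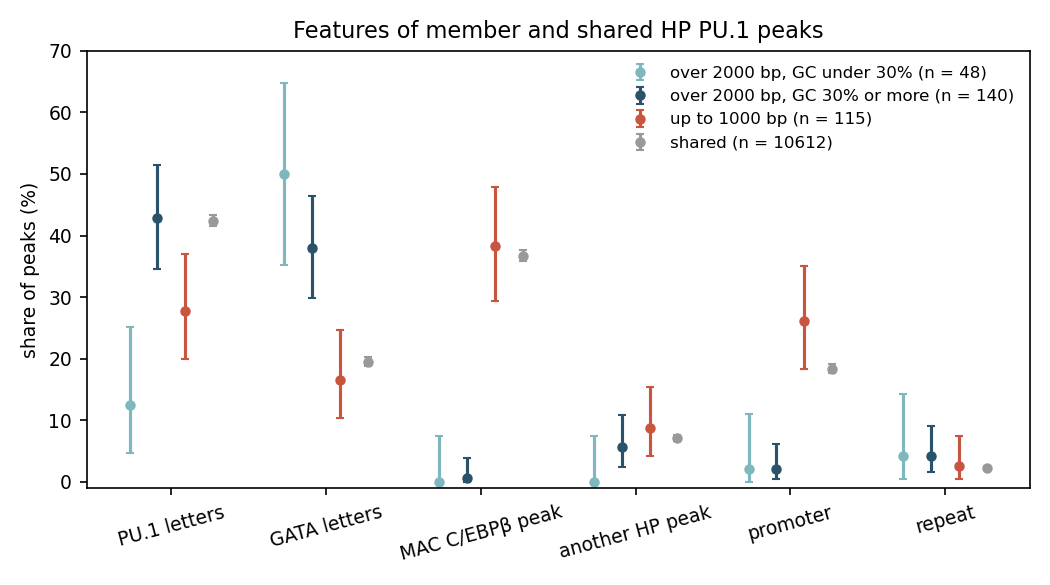
Share of peaks in percent with the exact 95% interval (vertical axis) for 6 features (horizontal axis): GAGGAAGT, AGATAA, overlap with a MAC C/EBPβ peak, overlap with any other HP list, a centre within 2 kb of a coding TSS, and at least 50% of bases soft-masked. The 48 GC-poor distant members have the lowest PU.1 value at 12.5%, and only the 115 neighbouring members, at 38.3%, come near the 36.7% of the 10612 shared peaks for MAC C/EBPβ.

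At least 1 of the 12 other lists overlapped 59 of the 331 members (17.8%, 13.9 to 22.4%), 39.2% of shared peaks and 38.5% of all HP PU.1 peaks. Of the 59 members, 45 overlapped 1 other list, 10 overlapped 2, and 4 overlapped more. Of the neighbouring members 38.3% did so, and MAC C/EBPβ, described further on, lay at all 44 of them. Of the distant members 9 did (4.79%, 2.21 to 8.89%), 8 of them with another HP list and 1 with MAC C/EBPβ. The HP lists were made from the same population as the members. They overlapped 21 members in all (6.34%, 3.97 to 9.53%), 7.19% of shared peaks and 7.16% of all HP PU.1 peaks, so that the members stood close to the whole list. HP RUNX1 lay at 10 members (3.02%, 1.46 to 5.49%), where all HP PU.1 peaks had 1.78%. HP C/EBPβ lay at 7 (2.11%, 0.854 to 4.31%), beside 3.71%, and HP GFI1B at 7, beside 1.92%. HP GATA2 lay at 3, beside 0.96%, and HP GATA1 at 2, beside 0.356%. Each of these intervals included the value of the whole list. In the first 50% of rows HP RUNX1 lay at 4 of 50 members (8%, 2.22 to 19.2%). Shared peaks there had 1.94%, which lies below that interval. The lists of MAC RUNX1 and of the HB, HE and MES stages overlapped no member, which allows a share of up to 0.906% for each. Of all HP PU.1 peaks they overlapped as few, with 0.338% for MAC RUNX1, 0.439% for MES ELK4 and 0.384% for MES C/EBPβ. HB C/EBPβ had 0.274%, HE C/EBPβ 0.101% and HB GATA2 0.064%, so that a difference was not detectable at this number of members. RUNX1, GATA1, GATA2 and GFI1B are regulators of early blood cells, and C/EBPβ is a leucine zipper factor of myeloid cells.

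The letters under the 21 members with another HP factor differed from those of the rest only in part. GAGGAAGT was in 2 of them, at Tubb5 and Rnf19b (9.52%, 1.17 to 30.4%), and in 32.9% (27.7 to 38.4%) of the 310 members without another HP factor, and these intervals overlapped. In shared peaks the same division gave 28.4% and 43.5%. The shorter core GAGGAA was in 9 of the 21 (42.9%, 21.8 to 66%) and in 65.8% of the 310. AGATAA was in 23.8% (8.22 to 47.2%) of the 21 and 31.9% of the 310. For GAGGAA and AGATAA, too, the intervals overlapped. The RUNX and C/EBP letters had higher values in the 21, which were picked by lists that include HP RUNX1 and HP C/EBPβ. TGTGGTT was in 9 of the 21 and 9.03% (6.09 to 12.8%) of the 310, and in 18.6% and 12.2% of the shared peaks. TTGCNNAA was in 9 of the 21 and 16.5% (12.5 to 21.1%) of the 310, and in 34.3% and 15.4% of the shared peaks.

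The member with the most other lists was 42141 bp upstream of Pik3cb and overlapped HP C/EBPβ, HP GATA1, HP RUNX1 and MAC C/EBPβ. It lay 1153 bp from a MAC PU.1 peak and carried no GAGGAA. Next came 3 members with 3 other lists each. The one 76745 bp upstream of Mdm1 overlapped HP GATA1, HP GATA2 and HP RUNX1 and lay 11817 bp from the nearest MAC PU.1 peak, and no MAC list had a peak there. It held none of the PU.1, GATA or RUNX letters searched. The ones at Slc15a3, a lysosomal transporter of histidine and peptides, and at Cd300a, an inhibitory receptor of myeloid cells, were neighbouring members and overlapped HP C/EBPβ and MAC C/EBPβ with HP GFI1B at the first and HP RUNX1 at the second. Members with 2 others included those at Hdlbp and Clasp1, a microtubule-binding protein, each with HP RUNX1 and MAC C/EBPβ. Dhrs7, a dehydrogenase, had HP C/EBPβ and HP GFI1B, and lay 41570 bp from a MAC PU.1 peak, and Vcpkmt, a lysine methyltransferase, had HP GATA2 and MAC C/EBPβ. Of all 14 members with at least 2 other lists, 2 had GAGGAAGT, at Tubb5 and Rnf19b.

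Overlap with C/EBPβ of macrophages varied with this distance. MAC C/EBPβ overlapped 49 members (14.8%, 11.2 to 19.1%), 36.7% of shared peaks and 36% of all HP PU.1 peaks. Of the 49, 44 were neighbouring members, at 38.3% (29.4 to 47.8%), and 4 were intermediate, at 14.3%. A single distant member overlapped it (0.532%, 0.0135 to 2.93%). These counts follow the MAC PU.1 distance that defined the groups, and binding of both factors in the same macrophages was not separated here. C/EBP letters occurred in 14 of the 49 and in 16.3% of the other members.

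Taken over all rows, members had a lower share at promoters than shared peaks and lay further from genes. A coding TSS was at most 2 kb from the centre of 41 (12.4%, 9.04 to 16.4%), against 18.4% (17.7 to 19.2%) of shared peaks. Neighbouring members had 26.1% (18.3 to 35.1%), and distant ones had 4 of 188 (2.13%, 0.583 to 5.36%), at Sparc, Pcbp4, Arhgap32 and Krtap13. Median distances to a coding TSS were 12669 bp for neighbouring members, 106676 bp for distant ones and 18294 bp for shared peaks. The groups were defined by the MAC PU.1 distance, and MAC PU.1 peaks were nearest to 15782 coding genes. Distance to genes was therefore not separated from distance to MAC PU.1 peaks. In the first 50% of rows members did not have the lower share. There 20% (10 to 33.7%) of 50 members and 18% of shared peaks were at promoters, with median distances of 15152 and 18005 bp. The interval includes the 18%, so no difference is read from these values. When 200 bp of overlap was required, the promoter share of members was 16.5% (13.2 to 20.2%), an interval that includes the 18.4%. By the annotation at the centre base, 176 members were intergenic (53.2%), 144 intronic (43.5%), 5 in a 5′ UTR, 2 in a 3′ UTR, 2 in a coding exon and 2 in an exon of a noncoding gene. Shared peaks were intergenic in 43.8% and intronic in 49.4%.

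The share of members in repeats depended on the limit. At least 50% of the bases were soft-masked, the mark of repeats in the reference, in 13 (3.93%, 2.11 to 6.62%), against 2.31% (2.03 to 2.61%) of shared peaks, whose last 10% of rows had 4.47%. At a limit of 25% of the bases it was 29.3% (24.5 to 34.5%) of members and 17% of shared peaks, and by the centre base alone 14.5% (10.9 to 18.8%) and 13%. The median masked share was 15.5% of the bases in members and 11% in shared peaks, and 29% in the GC-poor distant members, whose flanking windows had 35.9%. Words of 50 bases that occur more than once in the genome, which bear on whether a 50 bp read has a unique position, were found in 14 members (4.23%) and 5.32% of shared peaks. They made up more than 10% of the peak in 3 members, at Stab2 (40.7%), at Hmga2 (40.2%) and on the mitochondrial genome (19.7%).

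The mitochondrial member, at chrM:15372-15771, was row 10938 of 10943. It was the only peak on that chromosome in any of the 14 lists, had a GC content of 36.5% and held no GAGGAA. Among the nuclear chromosomes members made up between 1.35% of the HP PU.1 peaks on X (2 of 148) and 4.19% on chromosome 8 (33 of 787, 2.9 to 5.84%). Chromosome Y had a single HP PU.1 peak, which was shared.

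The nearest coding genes of the 330 nuclear members numbered 314. Of these, 209 (66.6%) also had a shared HP PU.1 peak nearest to them and 293 (93.3%) had a MAC PU.1 peak. Over all 6420 genes nearest to an HP PU.1 peak these shares were 98.4% and 99.6%, and nothing is read from the difference, because shared peaks were defined by a MAC PU.1 peak at the same place. For distant members, 82 of 177 genes had no shared HP peak. For neighbouring ones 19 of 112 had none. The 21 genes without any MAC PU.1 peak nearest to them, of 24 such genes in the whole HP list, included Gla, the lysosomal alpha-galactosidase, Bche, butyrylcholinesterase, Slc17a6, a glutamate transporter of neurons, and Spock3. They were chosen for naming after the count was seen.

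Members at promoters or in exons that carried GAGGAAGT or another HP factor numbered 15, and the 12 closest to a TSS are named. Clta encodes the clathrin light chain A, and its member lay 455 bp into the gene with GAGGAAGT, at row 2957 and 601 bp from a MAC PU.1 peak. The member at Thap1 was 732 bp into the gene, where 4 further HP and 16 MAC peaks were nearest to it. Tut4, an enzyme that adds uridines to RNA, had its member 331 bp from the TSS, with GAGGAAGT and a GC content of 72%. The member in a coding exon of Bad, a BH3 protein of cell death, was nearest to the TSS of Gpr137 at 76 bp and carried GAGGAAGT. In Tubb5 the peak lay 1012 bp into the gene, held GAGGAAGT and overlapped HP RUNX1. The Hdlbp member lay in the 5′ UTR, without GAGGAAGT. Ttc9c had its member 26 bp upstream of the TSS, with HP C/EBPβ and MAC C/EBPβ.

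Fes, a tyrosine kinase of myeloid cells, had its member in an intron 1230 bp from the TSS, with HP C/EBPβ and MAC C/EBPβ and without GAGGAAGT. Slc15a3 had its member 608 bp upstream. Sparc, a secreted matrix protein, had 1 at 1140 bp upstream with GAGGAAGT, 5816 bp from a MAC PU.1 peak. The member in Gla lay 1417 bp into the gene, with GAGGAAGT, and was the only HP PU.1 peak nearest to that gene. Rab29 had a pair of members, 391 and 826 bp upstream, and the first, with GAGGAAGT, lay 587 bp from a MAC PU.1 peak. Both overlapped MAC C/EBPβ.

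Gene lists of the lineages involved were looked up to see whether members lay near them. Their 186 genes were taken from textbook knowledge, apart from those of the study's network, and all matched the annotation. Of the 6420 genes nearest to an HP PU.1 peak, 314 were nearest to a member (4.89%). Of the 16 transcription factor genes of the network that the study mapped, 10 had an HP PU.1 peak and none had a member. Of 30 lymphoid genes 12 had an HP PU.1 peak and none a member. The macrophage list had 22 of 30 genes with an HP PU.1 peak and members at Msr1 and Fcgr1. The endothelial list had 18 of 26 and members at Efnb2 and Nrp1. The stem and progenitor list had 23 of 30 and a member at Ets1, the megakaryocyte and erythroid list 10 of 30 and a member at Rab27b, and the neutrophil and mast cell list 14 of 26 and a member at Gata3. With so few genes in each list, none of these counts sets a list apart from the share over all genes.

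The 7 members at these genes differed widely. At Fcgr1, the high-affinity receptor for IgG, the member lay 53 bp upstream of the TSS and was the only HP PU.1 peak nearest to the gene. It held GAGGAA but not GAGGAAGT, overlapped MAC C/EBPβ and lay 497 bp from a MAC PU.1 peak, and the MAC list had 7 peaks nearest to this gene. At Nrp1 the member was at row 1695, 75485 bp upstream, with GAGGAAGT, and 48 MAC PU.1 peaks were nearest to this gene. In Rab27b, a GTPase of granule secretion, it lay in an intron, 9755 bp from a MAC PU.1 peak. Those at Ets1, an ETS family factor, and Gata3 carried GAGGAAGT, but their TSS were 423885 bp and 783115 bp away. At Msr1 the member lay 188832 bp upstream with a GC content of 21.2%, and at Efnb2, the ephrin ligand of arterial endothelium, 1500670 bp away with 30.8%, and neither held GAGGAA.

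Genes nearest to several members were 13, with 3 members each for Tenm3, Pcdh7 and Marchf1 and 2 each for the rest. Tenm3, Pcdh7, a protocadherin, Cdh9, a cadherin, and Adam34l, a metalloprotease-like gene, had 10 members between them. Among these, GC contents ran from 22.5 to 31%, all lay at least 27785 bp from a MAC PU.1 peak, and 1 carried GAGGAAGT, in an intron of Pcdh7. Marchf1, a ubiquitin ligase that acts on MHC class II, had 2 members of 22.2 and 26.8% GC and 1 of 46.2% with GAGGAAGT, all in its introns. Ccr1, a chemokine receptor, had a pair of neighbouring members at 36221 and 40501 bp from its TSS, both with GAGGAAGT. Irak3, an inhibitor of Toll-like receptor signalling, had 2 in introns, 586 and 2390 bp from MAC PU.1 peaks, the nearer one with GAGGAAGT. St3gal1, a sialyltransferase, had 2 neighbouring members within 4055 bp of the TSS, neither with GAGGAA. Rnf19b, a ubiquitin ligase, had 2 adjacent ones with GAGGAAGT, Inpp5f, a phosphoinositide phosphatase, had 2 without it, and Slc38a6, an amino acid transporter, had 2 without GAGGAA.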

How the data were processed

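By the methods of the study, the authors removed adapters with CutAdapt and mapped the ChIP-seq reads with Bowtie to mm10 (GRCm38). Reads mapping to several places were dropped, as were duplicates found by Picard. MACS then called the peaks with the stage's input as control and a p-value limit set by eye for each list, and polyPeak refined them, after which each was given 400 bp around its summit. Versions are not given in the sources used here. The deposited values are chromosome, start and end, with no score, height or depth. The length of a list therefore says nothing of the amount of binding, and weak and strong peaks cannot be told apart. The HP lists share 1 stage and its input.

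From the lists, a progenitor-only peak was an HP PU.1 peak with no MAC PU.1 peak overlapping by 1 bp. All peaks lay within the GRCm38 chromosomes, and RefSeq for that build gave genes, exons, soft-masked bases and letters. The nearest gene was that of the closest of 26032 TSS of curated coding transcripts. Letters were searched on both strands in the peak and in flanking 400 bp windows centred 2 kb away. Overlap with another list required 1 bp. The named members followed a rule: up to 12 at promoters or exons with GAGGAAGT or another HP factor, those at genes of 7 lists, genes with several members, up to 8 with the most other lists, the first 5 rows, and the 4 nearest to a MAC peak with 4 shared peaks of least overlap. The members at 1 gene that this rule names are not reported here. Members and lists were chosen with earlier results of these data known. Alternatives changed the overlap, the members, distances, masking and letters. Python 3.11.15, NumPy 2.4.6, pandas 2.3.3, SciPy 1.17.1, Numba 0.67.0 and Matplotlib 3.10.9 were used, and the overlap, distance, letter and interval functions were tested on simulated data.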

Additional observations from a re-analysis of the deposited data

How the results depend on the processing

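The number of members was 449 when 200 bp of overlap was required, and fell to 216 and 188 when a MAC PU.1 centre within 1000 or 2000 bp counted as shared. Of 78 alternatives 50 gave values inside the interval of the reported share, or within 1.5 times a reported count. The others follow. The promoter share of 12.4% was 16.5% for members by the 200 bp rule, 2.13% for members over 2000 bp from MAC PU.1 and 20% in the first 50% of the rows. It was 8.46% at 1 kb, 20.5% at 5 kb and 20.2% with the TSS of all transcripts. The intergenic share was 62.2% over 2000 bp from MAC PU.1 and 44% in the first 50% of the rows. The repeat share was 2% in the first 50% of the rows, 29.3% at a limit of 25% masked bases and 14.5% by the centre base. The PU.1 letters were in 64.4% when shortened to GAGGAA. The HP RUNX1 share was 8% in the first 50% of the rows. The MAC C/EBPβ share of 14.8% was 20.7% by the 200 bp rule, 0.532% over 2000 bp, 24% in the first 50% of the rows, 10.9% at 200 bp of overlap with that list, 28.1% for centres within 1000 bp and 9.66% for distal peaks. Members at listed genes were 2 in place of 7 when they had to lie in the gene or within 10 kb. Alternatives chosen after seeing the data moved the share of members under 30% GC, 15.4%, to 4.53 and 25.1% at limits of 25 and 35%, 11.4% by the 200 bp rule, 25.5% over 2000 bp, 0% in the first 50% of the rows and 4.52% without the last 10% of rows. The alternatives differ in which peaks or bases they count. Any further cause was not tested. No paired analysis was possible because each group held 1 list. Without replicates or depth, absence from the MAC list cannot be told from a peak below its threshold, which was the stricter of the pair.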

Other observations

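Peaks as poor in GC as those among the members were rare in the other lists. In the MAC PU.1 list 49 of 82866 peaks had a GC content under 30% (0.0591%, 0.0437 to 0.0782%), and 26 of 55471 in the MAC C/EBPβ list (0.0469%). The HP PU.1 list had 66 of 10943 (0.603%, 0.467 to 0.767%), of which 43 lay in its last 10% of rows. The other 5 HP lists, which share the HP input, had 1 such peak in all, in HP C/EBPβ, although they are shorter, with 250 peaks for HP GATA1 to 2716 for HP C/EBPβ. Of the 400 bp windows laid end to end along the GRCm38 chromosomes, 3.65% were under 30% GC. The GC-poor peaks of the HP PU.1 list were therefore more frequent than in the MAC PU.1 list and less frequent than in the genome, and what set them in the last rows was not tested.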
